A study of Mus musculus with 6 samples.

Results

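The cytosolic ribosomal protein genes are the nuclear genes for the proteins of the ribosome that translates most cellular messenger RNA. They were taken from the deposited gene table by symbol alone, as every row named Rpl or Rps with a number and at most 1 letter, together with Rplp0, Rplp1 and Rplp2. The rule gave 77 of the 15953 genes in the table, 47 of the large subunit (Rpl and Rplp) and 30 of the small subunit (Rps). RNA sequencing had been done on livers of C57BL/6 mice, 3 labelled wild type and 3 labelled Cgref1 knockout, each group described as biological replicates. The cell type is labelled as hepatocytes, but the design text names whole liver tissue as the source of RNA. The sources used here do not give age, sex, feeding or any treatment, nor the position, cell type or promoter of the deletion. As nothing more is said of how replicates were obtained, p-values measure only the spread between these samples.

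A ribosome joins a large subunit, which forms peptide bonds and holds the tunnel through which the new chain leaves, to a small subunit, which reads the messenger RNA. Each ribosomal protein is needed in about the same number of copies per ribosome, apart from the stalk proteins P1 and P2, which are present as several copies. Many of their messenger RNAs start with a C followed by a run of pyrimidines, the 5′ terminal oligopyrimidine (TOP) motif, through which mTORC1 signalling controls their translation. Liver makes large amounts of secreted protein, and its ribosome content changes with feeding.

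To show what the TOP motif looks like in these genes, 30 bases of the sense strand around annotated start sites are given here for 9 members that recur in the results or carry a long run, from the RefSeq start windows of GRCm38.p6. Each has 15 bases before the start, and capitals mark the run of pyrimidines that begins with C at the first transcribed base.
Rpl15, chr14:18270972-18271001, minus strand: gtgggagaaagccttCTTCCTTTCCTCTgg
Rpl35, chr2:39005117-39005146, minus strand: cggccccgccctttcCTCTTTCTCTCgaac
Rpl38, chr11:114668565-114668594, plus strand: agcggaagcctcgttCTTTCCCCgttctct
Rplp2, chr7:141447636-141447665, plus strand: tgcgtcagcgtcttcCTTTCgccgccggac
Rps6, chr4:86857353-86857382, minus strand: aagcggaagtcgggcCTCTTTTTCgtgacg
Rps10, chr17:27635230-27635259, minus strand: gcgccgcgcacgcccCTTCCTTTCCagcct
Rps15a, chr7:118116133-118116162, minus strand: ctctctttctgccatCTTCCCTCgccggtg
Rps21, chr2:180257364-180257393, plus strand: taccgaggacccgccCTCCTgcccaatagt
Rps27, chr3:90213634-90213663, minus strand: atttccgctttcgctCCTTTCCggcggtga

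Of the 77 members, 57 matched a RefSeq start window by symbol, with 69 windows between them. A C at the start followed by at least 4 further C or T was found at 1 or more starts of 13 of the 57 members (22.8%), against 3.01% of the 27025 genes in the RefSeq table. The letters CTTTCC on the sense strand within 50 bases of the start were held by 18 members (31.6%), against 5.43% of genes, and they can overlap the run. The letters CCGGAAG, on either strand of the 300 bases from 250 before to 50 after the start, were held by 23 members (40.4%), against 9.93% of genes. The letters AAGATGGC on either strand of the same window were held by 5 members (8.77%), against 3.19%. The letters TATAAA from 40 to 15 bases before the start were in 0 of the 57, against 2.41% of genes. These are matches of letters at annotated starts, not measured start sites. The run is shared by members that lay at opposite ends of the liver levels described next, such as Rps27 and Rps6.

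The libraries held 17627734 to 18366443 estimated counts, and 12033 genes passed the filter on low counts. Hepatocyte markers were present in all libraries, led by Alb at 5.01% to 8.04% of counts. Cgref1, the targeted gene, was counted 7, 7 and 19 times in the libraries labelled wild type, beside 7, 12 and 10 times in those labelled knockout, so its level does not separate the labels. Directions are therefore given for the libraries labelled knockout over those labelled wild type. Of 12 intestinal genes fixed as markers, the 11 other than Fabp2 together had 183 counts in wild type replicate 1, 11 in replicate 2 and 332 in replicate 3, while the knockout-labelled libraries had 0, 0 and 3. Fewer cells of a type and less RNA per cell cannot be told apart in such bulk samples.

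Together the members held 1.47%, 1.63% and 1.88% of all counts in the wild type livers (replicates 1, 2 and 3) and 1.59%, 1.45% and 1.58% in the knockout-labelled ones. The groups overlapped, at 1.66% ± 0.203 (SD, n = 3) in wild type and 1.54% ± 0.0815 (SD, n = 3) in knockout-labelled livers. In TPM, a measure of transcript abundance that divides each gene's counts by its length, they held 3.89%, 4.15% and 4.93% against 4.17%, 3.53% and 3.81%. Wild type replicate 3 was the highest library on both scales. The ratio of large to small subunit counts was 1.92, 1.80 and 1.79 in wild type, against 1.81, 1.83 and 1.80 with the knockout label, so that replicate 1 of wild type had the highest ratio and the other 5 libraries lay close together.

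All but 1 member had a clear signal in liver. Over the 6 libraries the median member lay at 507 TPM, against 6.98 TPM for the median gene tested, and the subunits were alike, with medians of 507.0 TPM (large) and 509.2 TPM (small). Of the 77 members, 64 had a mean between 200 and 1000 TPM, 6 lay above 1000 and 7 below 200. Genes whose proteins enter the ribosome as 1 copy each thus differed widely in the level listed for them.

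**Figure D1:**
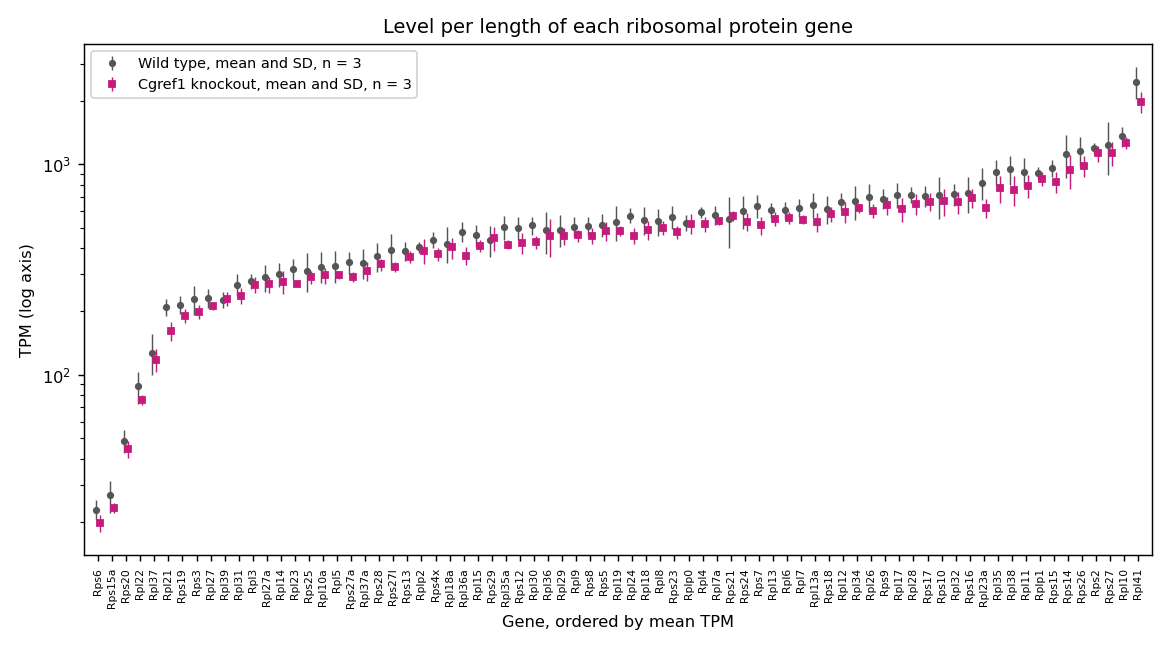
Mean level of 75 ribosomal protein genes in TPM (log axis) in 3 wild type (grey circles) and 3 Cgref1 knockout-labelled livers (pink squares), ordered by the mean over 6 libraries, with bars of 1 SD. Most members form a plateau between 200 and 1000 TPM, with Rps6, Rps15a and Rps20 far below it and Rpl41 above it. Rpl3l, near 0, and 1 further member are left out.

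The highest member was Rpl41, which encodes the smallest ribosomal protein, at the contact between the subunits. Its level was 2235, 2217 and 2954 TPM in wild type and 2236, 1831 and 1849 TPM in knockout-labelled livers. Rpl10, whose protein joins the large subunit late in its assembly, followed with 1246, 1307 and 1516 TPM against 1325, 1172 and 1299 TPM. Rpl41 lay above Rpl10 in every library.

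Below them came 3 small subunit genes whose ranges overlapped. Rps27, a zinc finger protein, had 899.2, 1209 and 1593 TPM in wild type and 1300.3, 1084 and 1006 TPM in knockout-labelled livers. Rps2, at the entry of the messenger RNA channel, had 1119, 1191 and 1259.7 against 1192, 1016 and 1166 TPM. Rps26, at the exit of that channel, had 1006, 1099 and 1366 against 1104, 933.2 and 899.6 TPM. Rps2 varied least of the 3 and the order among them changed from library to library.

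At the bottom, Rpl3l, the paralog of Rpl3 that is known from heart and skeletal muscle, had a single count in wild type replicate 1, a single count in knockout-labelled replicate 2 and 0 elsewhere. It was the only member to fail the filter on low counts. Rps6, the small subunit protein that S6 kinase phosphorylates, had 21.8, 21.2 and 25.7 TPM in wild type and 17.7, 20.2 and 21.3 TPM in knockout-labelled livers. Rps15a had 21.6, 28.5 and 30.2 against 24.8, 22.2 and 22.9 TPM. The ranges of Rps6 and Rps15a overlapped, and every library of both lay below every library of Rps20, the next small subunit gene in the order.

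Rps20, a protein of the small subunit's head, had 42.0, 49.4 and 53.9 TPM in wild type and 48.6, 40.3 and 44.1 TPM in knockout-labelled livers. Rpl22, an RNA-binding protein of the large subunit, had 78.8, 79.7 and 106 against 79.8, 75.8 and 71.7 TPM. For 3 of these low members the length behind the TPM was longer than that of most members. The effective length, the gene's length as implied by its counts and FPKM, was 4971 nt for Rps15a, 3281 nt for Rps20 and 2038 nt for Rpl22, against a median of 549 nt over the members. Before division by length, these genes had a mean of 94.0, 112.5 and 127.1 CPM (counts scaled to the size of the library) in wild type, against a median of 195.8 CPM for members over all libraries. Rps6, at 1229 nt and 19.9 ± 1.98 CPM (SD, n = 3) in wild type, was low on either scale.

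Estimated counts that are not whole numbers mark reads that were divided between genes or copies. Counts were fractional in all 6 libraries for 6 members (Rpl5, Rpl23, Rpl31, Rpl34, Rps6 and Rps23), in some libraries for 10, and in none for 61. Between 84.4% and 88.3% of member values in a library were whole, against 92.3% to 92.9% over all genes. Ribosomal protein genes have many processed pseudogenes, and GENCODE vM21 lists 288 that are named after 58 of the members. Rpl31 and Rps12 have 24 each, Rpl21 has 15, and Rpl23a and Rps19 have 14 each. The near copies in the table, Rpl37rt, Rps27rt, Rpl31-ps12 and Rpl34-ps1, had at most 8.72 counts in any library. Levels of members with near-identical copies are uncertain to the extent that the counting could split or discard such reads, and the part of this in the low value of Rps6 was not tested. Of the members, 23 overlap another gene of the table. The sources used here do not say whether strand was used in counting.

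Against this level, the comparison of the genotypes found no member that differed. With edgeR's quasi-likelihood test 0 of the 76 members tested had an adjusted p under 0.05, and the smallest was 0.944. Over all genes 1 of 12033 (0.00831%) passed. At an unadjusted p under 0.05 there was 1 member, Rpl36a, or 1.32% of them, against 621 genes (5.16%). DESeq2 called 0 members (0.233% of genes) and none had an unadjusted p under 0.05. limma-voom also called 0 members (0.00831% of genes), with 1 member under 0.05 before adjustment. In the authors' deposited table no member had a q under 0.05 (0 of 77), the smallest was 0.9994, and 27 genes passed.

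The intervals show how large a difference remained possible. The log2 fold changes ran from -0.27 (Rpl23a) to 0.19 (Rps21), with standard errors of 0.09 to 0.19. The 95% confidence interval lay within a 1.5-fold change in either direction for 75 of the 76 members, against 61.7% of all genes. Rps21 was the exception, with an upper bound of 0.63 on the log2 scale, and all 76 intervals lay within a 2-fold change. The lowest lower bound was -0.56, for Rpl23a. The median standard error of the members was 0.11, that of other genes at 50 CPM or more was also 0.11, and that of all genes was 0.16.

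The signs were divided evenly, with 39 members negative and 37 positive. In all genes tested 50.5% were negative. The median log2 fold change was -0.0048 over the members, -0.0048 over the 46 large subunit genes and -0.0075 over the 30 small subunit genes, beside -0.0022 over all genes. The even division depended on the scaling: with library totals alone 70 of the 76 were negative, and with log2(TPM + 1) 73 were. Those scalings moved all genes as well, their median to -0.08 and -0.11, so relative to all genes the members lay at -0.0044 and -0.03. It also depended on single libraries: without wild type replicate 1, 69 members were negative with a median of -0.08, and without wild type replicate 3, 17 were negative with a median of 0.07. The median of all genes stayed at -0.003 and 0.0028 in those fits.

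**Figure D2:**
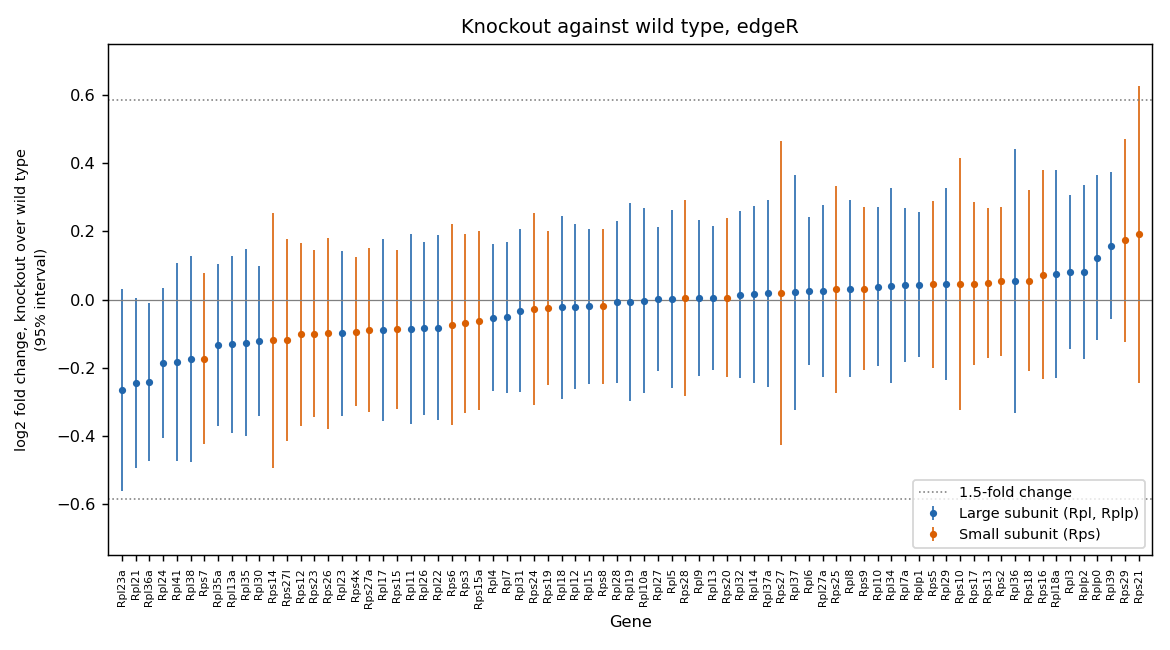
log2 fold change (knockout-labelled over wild type, 3 livers each) of 75 ribosomal protein genes with 95% confidence intervals from edgeR, ordered by value, large subunit in blue and small subunit in orange. Dotted lines mark a 1.5-fold change, and all intervals drawn lie between them except that of Rps21 at the right end. Of the 76 members tested, 1 is not drawn. The subunits are mixed along the order.

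The 6 members with the smallest p among those with negative values held 5 genes of the large subunit. Rpl36a, whose protein sits where spent transfer RNA leaves, lies on the X chromosome from 134585654 to 134588062 on the plus strand. It had 112, 96.9 and 119.5 CPM in wild type and 98.8, 90.3 and 88.6 CPM in knockout-labelled livers, for a log2 fold change of -0.24 (SE 0.10, edgeR adjusted p = 0.944). The groups overlapped, as knockout-labelled replicate 1 lay above wild type replicate 2.

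Rpl21, on chromosome 5 from 146832890 to 146837032, had 280.4, 224.7 and 251.6 CPM in wild type and 228.7, 213.6 and 196.6 CPM in knockout-labelled livers (log2 fold change -0.24, SE 0.11, edgeR adjusted p = 0.964). Rpl23a, which lies at the mouth of the peptide tunnel where chaperones and the signal recognition particle dock, had 270.3, 189.4 and 224.5 CPM against 204.1, 181.0 and 184.2 CPM (log2 fold change -0.27, SE 0.13, edgeR adjusted p = 0.973). In both genes wild type replicate 1 was the highest library, and knockout-labelled replicate 1 lay above wild type replicate 2. Without wild type replicate 1 the log2 fold change was -0.17 for Rpl21 and -0.13 for Rpl23a.

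Rpl24, which bridges the subunits, had 215.9, 188.4 and 218.1 CPM in wild type and 192.8, 178.8 and 175.7 CPM in knockout-labelled livers (log2 fold change -0.19, SE 0.10). Rps7, a small subunit protein needed for ribosomal RNA maturation, had 345.2, 323.4 and 403.7 against 340.5, 311.1 and 299.6 CPM (log2 fold change -0.17, SE 0.11), and its value was -0.08 without wild type replicate 3. Rpl41 had 449.3, 447.5 and 589.5 against 475.3, 419.7 and 414.7 CPM (log2 fold change -0.18, SE 0.13). The groups overlapped in all 3 genes. For Rpl41 the value without wild type replicate 3 was -0.04.

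Among the members with positive values and the smallest p, Rpl39, which lines the peptide tunnel and lies on the X chromosome from 37082518 to 37085222 on the minus strand, had 44.6, 39.3 and 45.9 CPM in wild type and 50.2, 46.5 and 48.1 CPM in knockout-labelled livers. All 3 knockout-labelled libraries lay above all 3 wild type libraries. The log2 fold change was 0.16 (SE 0.10, edgeR adjusted p = 0.974), and 0.10 without wild type replicate 2. Rpl39 was the only one of the 76 members (1.32%) whose groups did not overlap in CPM, while this held for 10.8% of all genes. Its groups overlapped in TPM, at 234.3, 205.0 and 242.7 against 249.0, 214.2 and 226.2. On the TPM scale 11 members (14.5%) did not overlap, all of them lower in knockout-labelled livers, against 15.3% of all genes that were lower without overlap.

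Rps29, a zinc-binding protein of the small subunit's head, had 57.1, 80.9 and 71.6 CPM in wild type and 87.1, 73.6 and 75.7 CPM in knockout-labelled livers (log2 fold change 0.17, SE 0.13). Its value was 0.04 without wild type replicate 1, 0.30 without wild type replicate 2 and 0.10 without knockout-labelled replicate 1, and turned to -0.051 when wild type replicates 1 and 3 were both left out. Rps21, on chromosome 2 from 180257370 to 180258444, had 60.3, 100.3 and 104.9 CPM in wild type and 102.7, 100 and 100.4 CPM in knockout-labelled livers. Its positive value of 0.19 (SE 0.19) rested on 1 library, as 5 of the 6 livers lay between 100 and 104.9 CPM, and without wild type replicate 1 it was -0.028. It was 0.30 without wild type replicate 2 and 0.33 without replicate 3. Rpl3, whose protein reaches to the site of peptide bond formation, had 222.9, 232.0 and 253.3 against 241.3, 235.3 and 271.9 CPM (log2 fold change 0.08, SE 0.10), a sign that turned to -0.0017 with library totals, -0.005 with FPKM and -0.057 with TPM. Without knockout-labelled replicate 3 it was 0.01, without wild type replicate 1 0.03, and without wild type replicate 3 0.13.

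The proteins of the stalk, which recruits elongation factors to the large subunit, had values above 0 without a difference past the threshold. Rplp0, the base of the stalk, had 408.9, 462.1 and 465.3 CPM in wild type and 472.9, 447.1 and 534.6 CPM in knockout-labelled livers (log2 fold change 0.12, SE 0.11), which turned to -0.015 with TPM. It was 0.06 without wild type replicate 1 and 0.05 without knockout-labelled replicate 3. Rplp1 had 180.8, 202.5 and 202.7 against 205.4, 189.5 and 209.3 CPM (log2 fold change 0.04, SE 0.10). Rplp2 had 78.7, 75.7 and 84.3 against 76.1, 78.4 and 98.1 CPM (log2 fold change 0.08, SE 0.11), and was -0.042 without knockout-labelled replicate 3. Although P1 and P2 form dimers, their messages differed in level per length, at 912.3 ± 60.9 TPM for Rplp1 and 404.7 ± 23.8 TPM for Rplp2 in wild type (SD, n = 3). Rplp0, which binds those dimers, stood between them at 526.9 ± 45.5 TPM.

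The members moved together from liver to liver more than they did between genotypes. The shift of a library was taken as the median, over the 76 members, of the log2 CPM minus that gene's mean over the 6 libraries. In the order of the replicate numbers it was -0.12, -0.03 and 0.18 for wild type, and 0.03, -0.06 and 0.01 for the knockout label. For all genes tested the same median lay between -0.0002 and 0.02. Wild type replicates 3 and 1, the highest and the lowest library, were 0.30 apart, a 1.23-fold difference within 1 genotype. The mean shift was 0.0087 ± 0.15 (SD, n = 3) in wild type and -0.0052 ± 0.05 (SD, n = 3) in knockout-labelled livers, so the difference of the means was far smaller than the spread in wild type.

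**Figure D3:**
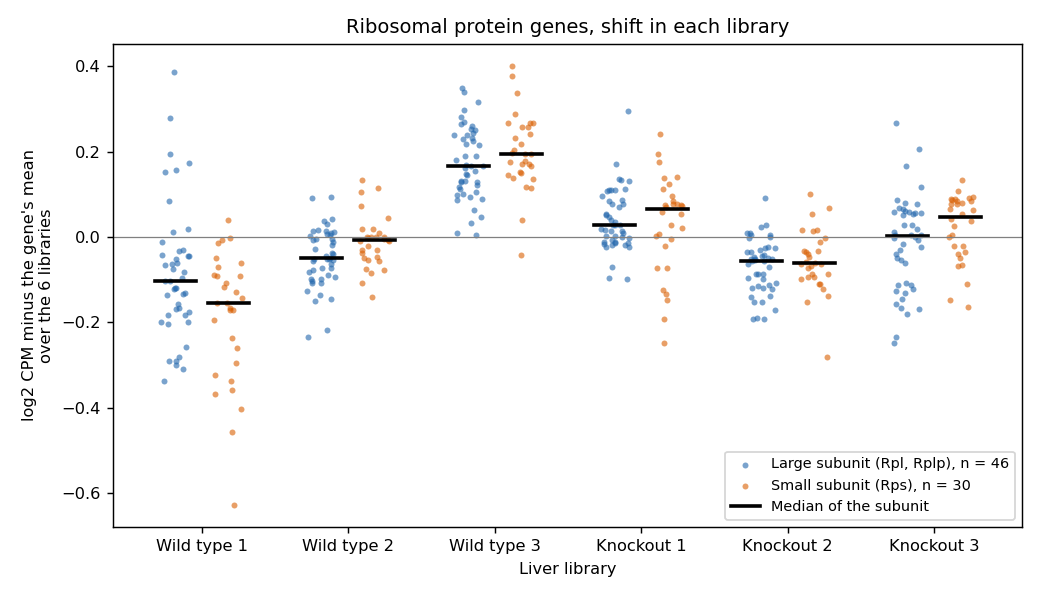
Shift of each ribosomal protein gene in each of 6 livers, as log2 CPM minus the gene's mean over the libraries, for 46 large (blue) and 30 small (orange) subunit genes, with black bars at the medians. Nearly all points of wild type replicate 3 lie above 0, and wild type replicate 1 has the lowest medians, -0.10 and -0.15, and the widest scatter.

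The same order of libraries was seen in both subunits at the extremes. The large subunit medians were -0.10, -0.05 and 0.17 for wild type, then 0.03, -0.05 and 0.003 for the knockout label. The small subunit medians were -0.15, -0.0079 and 0.19 and then 0.07, -0.06 and 0.05. Large minus small was 0.05 in wild type replicate 1 and between -0.05 and 0.0063 in the other 5 libraries, so the subunits differed by much less than the libraries did.

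Single genes followed the set closely. Wild type replicate 3 was the highest library for 65 of the 76 members and lay above the gene's mean for 75, and wild type replicate 1 was the lowest for 41. The members' SD around their library's level was 0.07 to 0.10 in 5 libraries and 0.16 in wild type replicate 1. For the 2367 other genes with a mean of at least 50 CPM it was 0.13 to 0.24 and 0.30. Within groups, however, the median SD of a member was 0.15, beside 0.13 for those other abundant genes and 0.19 for all genes.

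Other measures that differed between libraries are given beside this shift. The 213 non-member genes with an effective length under 500 nt had medians of -0.03, -0.03 and 0.12 for wild type, then 0.03, -0.03 and -0.06 for the knockout label. The sum of the erythroid markers, mostly haemoglobin, was 38127, 47365 and 64396 counts for wild type, then 47178, 43164 and 31888 for the knockout label. Among these 6 genes Alas2, the haem synthesis enzyme of red cell precursors, had 2790 to 3498 counts. Intestinal markers other than Fabp2 were highest in wild type replicate 3 (332 counts) and replicate 1 (183). The ribosomal protein shift was 0.18 in wild type replicate 3 and -0.12 in replicate 1. With those replicates both left out the median member log2 fold change was 0.01. The sum of the 7 stellate cell markers was 4317, 4292 and 5527 counts for wild type, then 3330, 3590 and 4167 for the knockout label. The groups did not overlap in this sum. Of the 7 genes, 6 had a negative log2 fold change and 1 a positive one (median -0.31). At an unadjusted p under 0.05 with edgeR were 2 of the negative ones, and 0 passed adjustment. The sum of the 8 Kupffer cell markers was 4304, 4806 and 4840 counts for wild type, then 5157, 5499 and 5501 for the knockout label, without overlap. All 8 had positive log2 fold changes (median 0.33), 4 of them at an unadjusted p under 0.05 and 0 past adjustment with edgeR. Of all genes tested, 5.16% had an unadjusted p under 0.05 with edgeR, and in 10.8% the groups did not overlap in CPM. The sum of the 6 endothelial markers was 3457, 4023 and 4114 counts for wild type, then 3961, 3689 and 3934 for the knockout label. Of these genes 4 had a positive log2 fold change and 2 a negative one (median 0.05). Wild type replicate 3 was highest in the erythroid, stellate and endothelial sums, and wild type replicate 1 was lowest in the endothelial and Kupffer cell sums. The part of any cell type named here in the ribosomal protein shift was not tested.

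Wild type replicate 1 differed from the other libraries in the pattern within the set as well as in its level. Its scatter was also the widest over all 12033 genes tested, with an SD of 0.34 against 0.22 to 0.31. In that library 15 members lay more than 0.2 (log2) from the set's own median shift, while in each of the others 1 to 4 did. These members were picked after their values were seen and are described only. Of the 8 that lay below, 7 were small subunit genes, among them Rps21 at -0.51, Rps27 at -0.34, Rps10 at -0.28, Rps29 at -0.25, Rps16 at -0.22 and Rps25 at -0.20. The large subunit gene that lay below was Rpl37, at -0.22. All 7 that lay above were large subunit genes: Rpl23a at 0.51, Rpl21 at 0.40, Rpl23 at 0.32, Rpl30 at 0.29, Rpl36a at 0.28, Rpl24 at 0.27 and Rpl35 at 0.21. Among the 76 members the deviation had a Spearman rho of 0.078 with effective length, a description over genes of 1 library.

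**Figure D4:**
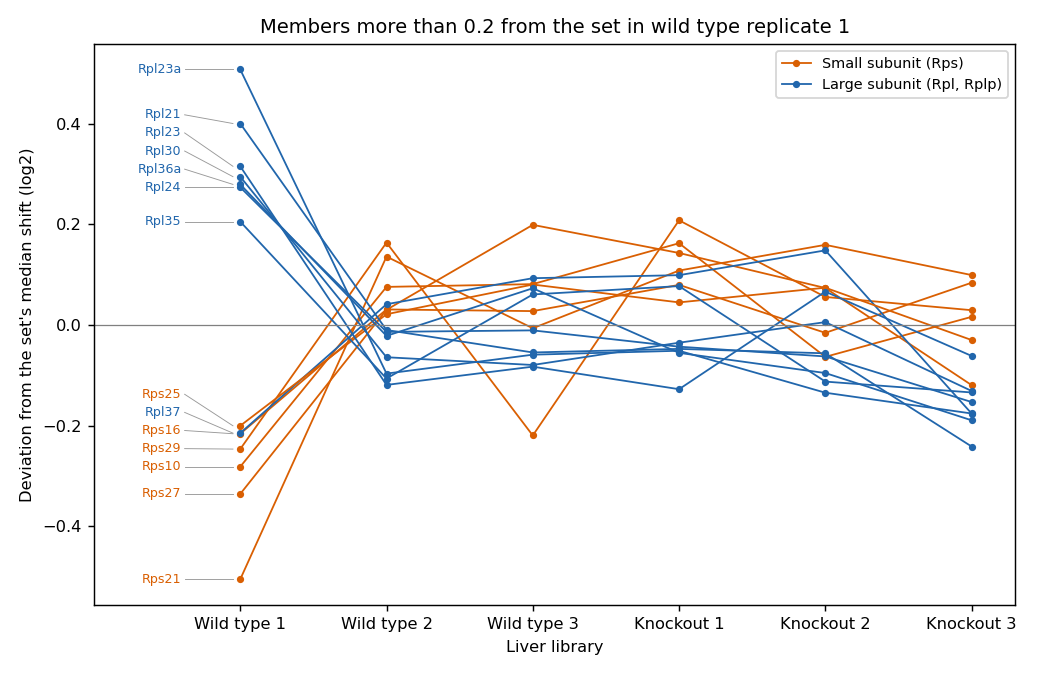
Deviation of 14 ribosomal protein genes from the set's median shift (log2) in each of 6 livers, from the members more than 0.2 from it in wild type replicate 1, large subunit in blue and small subunit in orange. The genes run from -0.51 (Rps21) to 0.51 (Rpl23a) in that library and lie between -0.24 and 0.21 in the others. As they were picked by that library, a narrower range in the others follows in part from the choice.

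Wild type replicate 1 is part of the wild type group, so deviations in it move the fold changes directly. Rps21 and Rpl23a, the ends of this split, were the ends of the list of fold changes, with 0.19 and -0.27. Without wild type replicate 1 their values were -0.028 and -0.13. Rps21, Rps27, Rps10 and Rpl36, of which Rpl36 is not in the split, were the members with the largest SD within groups, at 0.31, 0.31, 0.26 and 0.27 on the log2 scale. Rps27 had 115.6, 158.8 and 206.2 CPM in wild type and 179.4, 160.6 and 147.0 CPM in knockout-labelled livers. Rps10, in the small subunit's head, had 156.4, 213.5 and 247.5 against 236.8, 190.3 and 210.5 CPM. Rpl36 had 74.3, 71.4 and 104.5 against 103.1, 80.03 and 76.7 CPM. For Rps27 and Rps10 wild type held both the lowest and the highest library, and for Rpl36 the high libraries were 1 in each group.

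Paralogs can replace their parent in some tissues, so the ratio of the TPM values was compared where both genes had at least 10 counts in every library. This was so for 4 of the 8 pairs written down, and with 3 livers against 3 the exact permutation test cannot give a p below 0.1. Rpl36al, the intronless copy of Rpl36a, had 371.9, 395.6 and 448.4 TPM in wild type and 368.2, 371.0 and 393.2 TPM in knockout-labelled livers. Its log2 ratio to Rpl36a was -0.39, -0.09 and -0.23 for wild type, then -0.15, 0.10 and 0.18 for the knockout label. The groups overlapped, with a difference of 0.28 (exact two-sided permutation p = 0.2, adjusted over 4 pairs 0.4).

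Rpl22l1, which Rpl22 is known to hold down, had 50.9, 56.4 and 53.7 TPM in wild type and 54.3, 55.2 and 53.6 TPM in knockout-labelled livers, below Rpl22 in every library. Its log2 ratio to Rpl22 was -0.63, -0.50 and -0.98 against -0.56, -0.46 and -0.42, a difference of 0.23 (exact two-sided permutation p = 0.2, adjusted 0.4) that was 0.09 without wild type replicate 3. Rps27l, a paralog of Rps27 that p53 can induce, stood at 392.5 ± 73.3 TPM in wild type and 326.3 ± 17.1 TPM in knockout-labelled livers (SD, n = 3). The log2 ratio of Rps27l to Rps27 differed by -0.16 (exact two-sided permutation p = 0.6, adjusted 0.8). That difference was -0.038 without wild type replicate 1, -0.012 without knockout-labelled replicate 1 and -0.24 without knockout-labelled replicate 3. Rpl7l1, known from ribosome assembly, lay far below Rpl7, with log2 ratios of -4.46 ± 0.11 and -4.44 ± 0.28 (SD, n = 3) and a difference of 0.02 (exact two-sided permutation p = 1.0), which ran from -0.10 to 0.18 with 1 library left out. No pair was separated by genotype. Rpl10l, Rpl39l and Rps4l are not analysed here.

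Ribosomal proteins whose symbols fall outside the pattern were close to the members. The list fixed for them held 7 genes, among them Rpsa, Rack1 and Fau, of which 0 were called, and the median log2 fold change was 0.01. Rpsa, a small subunit protein also known as a laminin receptor, had 458.8, 515.2 and 552.4 TPM in wild type and 473.9, 427.7 and 500.03 TPM in knockout-labelled livers, and the groups overlapped. Fau, a small subunit protein fused to a ubiquitin-like one, stood at -0.15 (SE 0.10) on the log2 fold change scale, and at -0.08 without wild type replicate 3. Rpl22l1, with the smallest p of this list, had the opposite sign at 0.19 (SE 0.12, edgeR adjusted p = 0.984). In this list as in the members, wild type replicate 1 had the lowest median shift (-0.13) and wild type replicate 3 the highest (0.12). For Rps3a1, also outside the pattern, the log2 fold change was -0.04 (SE 0.10).

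In the wider ribosome pathway no gene of the fixed lists was called in either direction. Of 20 other messages with a TOP motif, such as elongation factors, 8 were positive and 12 negative, with a median of -0.04. The lowest p values were those of Npm1, a nucleolar chaperone (-0.12, SE 0.09), and Naca, which binds new chains at the tunnel (-0.11, SE 0.10). Npm1 was at -0.06 without knockout-labelled replicate 3, and Naca at -0.07 without knockout-labelled replicate 2. Their median shifts were 0.01, -0.04 and 0.05 for wild type, then 0.03, -0.05 and -0.03 for the knockout label, a smaller range than that of the members.

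Of 40 ribosome biogenesis genes 21 were positive and 19 negative, with a median of 0.03. Sbds, which frees the large subunit of an assembly factor, had 43.0, 41.1 and 42.5 CPM in wild type and 34.7, 37.6 and 32.5 CPM in knockout-labelled livers (log2 fold change -0.27, SE 0.09, edgeR adjusted p = 0.903). Dkc1, the enzyme that makes pseudouridine in ribosomal RNA, had 19.0, 17.1 and 18.5 against 15.2, 14.8 and 14.3 CPM (log2 fold change -0.30, SE 0.11, edgeR adjusted p = 0.919). Both were named for having the smallest p of the list. Neither gene's groups overlapped in CPM, as held for 10.8% of all genes, and neither passed adjustment. The shifts of this list were -0.13, -0.08 and 0.18 in wild type, as in the members, but -0.14, 0.01 and 0.15 in knockout-labelled livers.

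Of 15 RNA polymerase I genes 6 were positive and 9 negative (median -0.04), with Twistnb at -0.25 (SE 0.14) and Polr1d at 0.15 (SE 0.09), the latter -0.026 with TPM. Twistnb was at -0.15 without knockout-labelled replicate 1 and -0.38 without knockout-labelled replicate 2. Of 16 regulators of growth and translation 10 were positive and 6 negative (median 0.06). Among them the log2 fold change of Eif4ebp1, a translation repressor under mTORC1, was 0.19 (SE 0.11), 0.09 without wild type replicate 1 and 0.06 with TPM. That of Rps6kb1, the kinase of Rps6, was 0.12 (SE 0.11) and turned to -0.056 with FPKM and -0.11 with TPM. It was 0.20 without knockout-labelled replicate 1 and 0.08 without knockout-labelled replicate 2. The 78 mitochondrial ribosomal protein genes, which serve a separate ribosome, were 37 positive and 41 negative with a median of -0.0034. Among them Mrpl57 stood at 0.36 (SE 0.13, edgeR adjusted p = 0.903) and Mrpl41 at -0.18 (SE 0.10) on the same scale, and Mrpl57 was at 0.24 without wild type replicate 1. Their median shifts, -0.06 to 0.05, covered a narrower range over the libraries than the -0.12 to 0.18 of the cytosolic set. So did those of the growth regulators, at -0.06 to 0.01. The RNA polymerase I list, at -0.25 to 0.16, and the biogenesis list, at -0.14 to 0.18, covered wider ranges than the cytosolic set. A range of that size was thus also seen outside the cytosolic set. Those lists are smaller, with 15 and 40 genes, and had median standard errors of 0.20 and 0.16, against 0.11 for the members. The RNA polymerase I low of -0.25 was in knockout-labelled replicate 1. The differences between lists were not tested.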

How the data were processed

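Messenger RNA was enriched from total liver RNA and sequenced. The submitters' processing notes name HISAT, Bowtie2, RSEM and DESeq2; the sources used here give no version, setting or strandedness. The authors deposited 1 gene table with expected counts, FPKM and TPM per library, and a log2 fold change, p-value and q-value between the groups, per the file headers. Its 6 columns of group means and 9 columns of single-library comparisons were not used. Coordinates are those of the table (GRCm38).

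Expected counts were rounded, filtered with filterByExpr (minimum count 10), scaled by TMM and fitted over all 12033 genes with edgeR 4.0.16 (R 4.3.3, robust quasi-likelihood, no block), Benjamini-Hochberg threshold 0.05. DESeq2 1.42.0, limma 3.58.1 (voom, and trend on log2 values of FPKM and TPM after adding 1 or 0.1), other scalings and filters, the replicate block and left-out libraries were alternatives. The steps were tested on simulated data for 11921 genes of all levels, not for the members alone. Of the changes put in, 34% were recovered at 1.5-fold, 70% at 2-fold and 96% at 3-fold and 4-fold, with 12 false calls. Values within 0.005 of a whole number counted as whole. Library totals of 17627734 to 18366443 set the counting error.

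Single values of some genes are not reported here; all genes stayed in the fits, counts and medians. The members and lists were chosen with earlier results of these data known. Named genes were the 6 members with the smallest p in each direction, the stalk genes, the 5 highest and 5 lowest by TPM, the 4 with the largest SD within groups, the paralog pairs, and up to 2 genes per related list with the smallest p. The sources used here do not describe the replicate numbers as pairs, so the main fit did not take them as pairs. Same-numbered libraries had correlations of 0.283, 0.06 and 0.348 in their deviations from the group means. For the other combinations of wild type and knockout-labelled libraries the correlations ran from -0.3 to -0.006. The replicate block is therefore given as an alternative, and with it the smallest edgeR adjusted p of a member was 0.502.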

Additional observations from a re-analysis of the deposited data

How the results depend on the processing

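No alternative called a member in either direction. Over all genes the count of calls, 1 with the main setting, was 0 with a mean of at least 5 CPM, 28 with DESeq2, 34 with the replicate block, 0 with wild type replicates 1 and 3 both left out, and 1 to 5 with 1 library left out. Every library correlated best with its own number, a hint from the data and not from the design, and the replicate block gave a member median of 0.0055. The median of all members and of the large subunit was -0.14 with log2(TPM + 1) or log2(TPM + 0.1), where all genes lay at -0.11 and -0.13. With 1 library left out it ran from -0.08 to 0.07 for all members and for the large subunit, and from -0.12 to 0.08 for the small. Signs turned for Rps29 (-0.051 without wild type replicates 1 and 3), Rps21 (-0.0016 without those, -0.028 to 0.33 with 1 library left out), Rplp0 (-0.015 with TPM), Rpl3 (-0.0017 with library totals, -0.005 with FPKM, -0.057 and -0.058 with TPM), Rplp2 (-0.018 and -0.0185 with FPKM, -0.071 with TPM, -0.042 to 0.15 with 1 library left out), Polr1d (-0.026 with TPM) and Rps6kb1 (-0.056 and -0.062 with FPKM, -0.11 with TPM). The log2 ratio of Rpl7l1 to Rpl7 ran from -0.10 to 0.18 with 1 library left out. The share of the members was 4.32% and 3.84% in TPM, and 2.27% and 2.16% of counts without the 20 most abundant genes, for wild type and knockout-labelled livers. Of 668 alternative values 631 kept their direction and their side of the threshold, or moved by less than the spread between replicates, 24 changed sign and 13 moved by more; the causes were not tested. The range of the library shift, 0.30, was recomputed under 4 scalings chosen after seeing the data and moved by less than the spread between replicates. With 3 livers a group, differences within the printed intervals could not be told from 0.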
